A study of Homo sapiens with 2 samples.

Results

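The 10 genes described here encode proteins that the liver secretes into blood, and they were examined in Stage 6 cells, the last stage of a stepwise pancreatic differentiation of human embryonic stem cells. They are AFP, ALB, TTR, APOA1, APOA2, APOB, APOE, SERPINA1, FGB and RBP4, found by gene symbol in both deposited expression tables and joined by Ensembl identifier. All 10 were found once in each table, among 55797 genes in all. The cells were derived from the established H1 line, and there was a live and a processed sample, with 1 RNA-seq library of each. Live cells were neither fixed nor sorted, and their RNA was extracted with the RNeasy kit. Processed cells were fixed in 4% paraformaldehyde, permeabilized with saponin, stained with antibodies and passed through a sorter that kept all cells, after which RNA was released with a RecoverAll kit by a digestion of 3 hours at 50°C. Both samples hold the whole mixed culture, of which insulin-expressing cells are a part, and fewer cells of a type cannot be told apart from less RNA per cell in such bulk samples. With 1 library per condition no difference has a replicate error, and no p-value is given.

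Hepatocytes make most of the proteins of blood plasma, and the yolk sac makes many of the same proteins in the embryo. Liver and pancreas arise from neighbouring parts of the foregut endoderm and share several transcription factors, among them the HNF4 and FOXA families. Transcripts of some of these genes are not limited to liver, since islet cells are known to express TTR and RBP4, enterocytes make APOA1 and APOB, and macrophages and many other cells make APOE.

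Expression is given as FPKM, the fragments of a gene per kilobase of exon, scaled to library size, so that levels can be compared between genes. Each FPKM comes with a lower and an upper bound from the software, whose level is not stated and which describe counting precision within 1 library. Bounds of live and processed cells that do not overlap are called separate below. Ratios are log2((processed FPKM + 1)/(live FPKM + 1)), so that differences of weakly expressed genes come out too small. From the spacing of the lowest values the libraries held about 9.98e+07 (live) and 9.31e+07 (processed) fragments. Insulin (INS) stood at 98.3 FPKM in the live and 121 FPKM in the processed library, and somatostatin (SST) at 243 and 266 FPKM.

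The promoters of 5 genes are shown because they belong to pairs or trios of chromosomal neighbours whose values are compared below. AFP and ALB lie side by side on chromosome 4, and FGB shares its locus with FGA and FGG, which encode the other two fibrinogen chains. The sequences are the 250 bases before the RefSeq start, 5′ to 3′ on the coding strand, from RefSeq's GRCh38.p14 table. Each matched the coding strand of its own GRCh37 chromosome at exactly 1 place, and other chromosomes were not searched. Capitals mark TATAAA or its reverse complement TTTATA, the letters of the TATA box.
AFP: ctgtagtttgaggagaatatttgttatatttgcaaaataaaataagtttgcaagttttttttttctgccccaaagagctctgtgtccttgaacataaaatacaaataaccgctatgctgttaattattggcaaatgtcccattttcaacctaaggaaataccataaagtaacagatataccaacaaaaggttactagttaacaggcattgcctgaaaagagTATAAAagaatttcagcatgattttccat
ALB: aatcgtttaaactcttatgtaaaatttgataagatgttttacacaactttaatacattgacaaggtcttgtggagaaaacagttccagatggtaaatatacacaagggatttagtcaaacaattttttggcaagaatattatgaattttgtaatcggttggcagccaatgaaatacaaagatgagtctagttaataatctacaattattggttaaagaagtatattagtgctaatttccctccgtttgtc
FGB: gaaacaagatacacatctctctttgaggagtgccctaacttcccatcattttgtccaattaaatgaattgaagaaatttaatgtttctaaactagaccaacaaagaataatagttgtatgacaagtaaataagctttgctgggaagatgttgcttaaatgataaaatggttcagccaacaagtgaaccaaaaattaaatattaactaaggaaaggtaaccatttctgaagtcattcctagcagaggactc
FGA: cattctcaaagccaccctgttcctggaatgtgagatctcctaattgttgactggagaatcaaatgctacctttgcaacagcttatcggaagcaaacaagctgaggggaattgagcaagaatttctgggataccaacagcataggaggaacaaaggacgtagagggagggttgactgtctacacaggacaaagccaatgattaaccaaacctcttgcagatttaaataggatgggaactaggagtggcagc
FGG: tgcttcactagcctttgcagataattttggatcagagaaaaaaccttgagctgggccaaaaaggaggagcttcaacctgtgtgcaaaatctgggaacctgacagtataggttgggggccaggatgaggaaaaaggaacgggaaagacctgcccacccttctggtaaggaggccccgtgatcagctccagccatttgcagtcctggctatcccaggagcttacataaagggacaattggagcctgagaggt

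These windows lie on GRCh37 at chr4:74301688-74301937 (AFP, plus strand), chr4:74269754-74270003 (ALB, plus), chr4:155483882-155484131 (FGB, plus), chr4:155511895-155512144 (FGA, minus) and chr4:155533809-155534058 (FGG, minus). The RefSeq starts of AFP and ALB lie 5083 and 7173 bases inside the authors' gene loci, which begin further upstream. AFP alone of the 5 held TATAAA, beginning 29 bases before the start, and the letters are not in the other windows. A promoter was listed for 7 of the 10 genes (not TTR, APOA1 and APOB), and 1 of the 7, AFP, held these letters at the start nearest to the authors' gene. RefSeq lists further starts for some of these genes, and 2 starts of RBP4 further inside the gene held the letters, at one of them beginning 31 bases before the start. Over all 13 listed starts of the 7 genes, 3 held the letters. Of all 35116 promoters of the same length, with every listed start of a gene counted, 10.7% held the TATA letters on either strand. A match of letters is a description and does not show that a factor binds there.

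All 10 genes were expressed in Stage 6 cells, from 6.51 to 1496 FPKM in live cells and from 5.84 to 1579 FPKM in processed cells. Together they made up 0.583% of all FPKM in the live and 0.657% in the processed library. SERPINA1, which encodes the protease inhibitor alpha-1-antitrypsin, held 50.3% of the sum of the 10 genes in live and 48.1% in processed cells. The order of levels in live cells was SERPINA1, AFP, APOA1, APOE, TTR, FGB, APOA2, ALB, APOB and RBP4. In processed cells, APOA2 stood above FGB and RBP4 above APOB, and the other positions were the same. No 2 neighbours in either order had overlapping bounds, although APOA1 was only 1.04 times APOE in live cells.

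**Figure D1:**
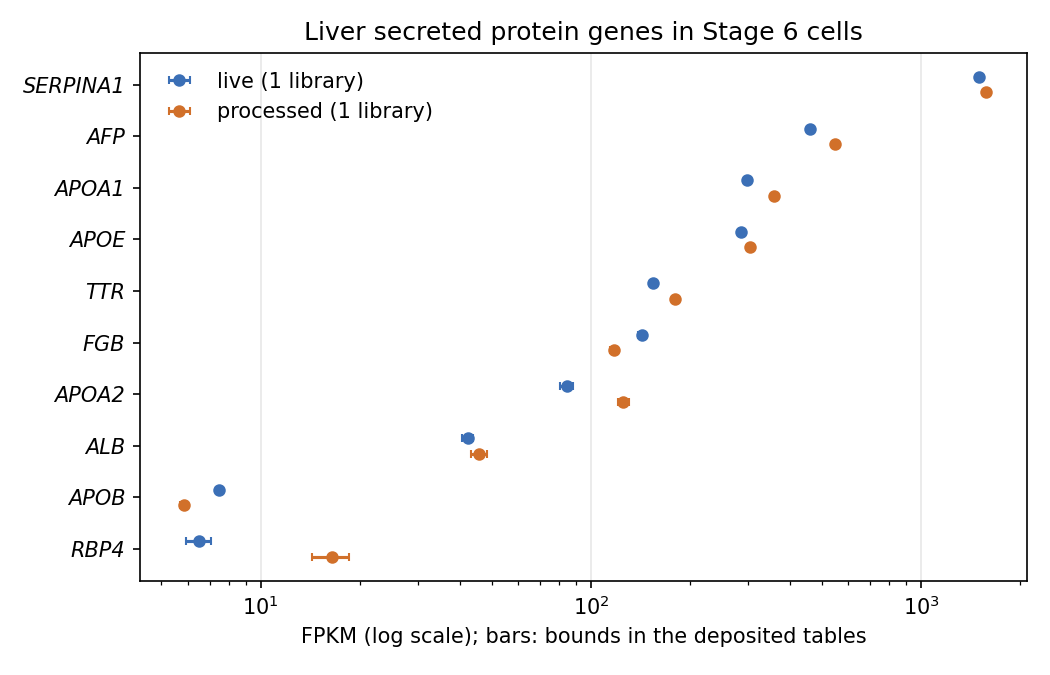
FPKM (log axis) of the 10 genes in the live and the processed library, with bars for the lower and upper bounds of the deposited tables. SERPINA1 is highest in both libraries, at 1496 and 1579 FPKM, and the largest distance between the libraries is that of RBP4, at 6.51 and 16.4 FPKM.

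Processed cells had separate and higher bounds for 7 of the 10 genes (RBP4, APOA2, APOA1, AFP, TTR, APOE and SERPINA1) and separate and lower bounds for 2 (FGB and APOB). The bounds of ALB overlapped. Of the 17326 genes that reached 1 FPKM in either library, which include all 10, 28.1% were higher and 43.7% lower with separate bounds. The median log2 ratio was 0.17 over the 10 genes and -0.09 over the 17326. Genes at or above 1 FPKM in both libraries had a median ratio of processed to live FPKM of 0.932, a shift of -0.10 on the log2 scale. Relative to that shift, 8 of the 10 genes were higher with separate bounds, ALB included, 2 were lower, and their median was 0.27, whereas 34.8% of all genes were then higher and 35.7% lower. RBP4 was the single gene of the 10 past 2-fold, in a background where 6.57% of genes lay past 2-fold upwards and 6.19% downwards.

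**Figure D2:**
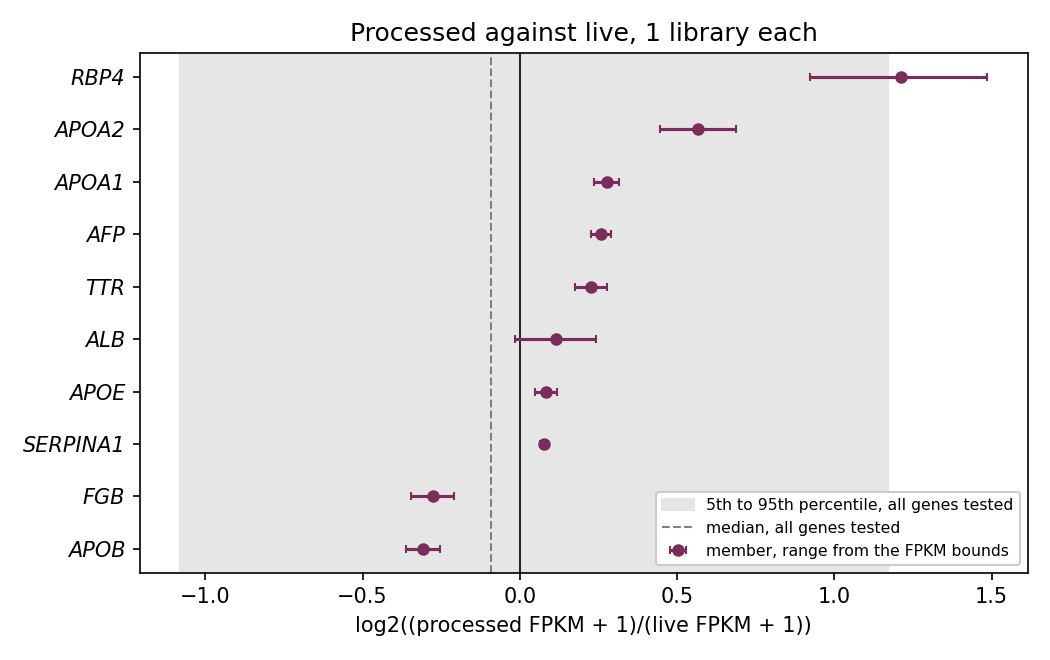
Log2 ratio of processed to live FPKM (pseudocount 1) for each of the 10 genes, with the range that the FPKM bounds allow; the grey band holds the 5th to 95th percentile of the 17326 genes (-1.08 to 1.17) and the dashed line their median, -0.09. The point of RBP4, at 1.21, lies just above the band, with a range from 0.92 to 1.49 that reaches into it, and the other 9 genes lie inside it.

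Among the carrier proteins, AFP, the alpha-fetoprotein of fetal liver and yolk sac (chromosome 4, 74296855 to 74321891, GRCh37), had 460.1 FPKM in live cells (bounds 455 to 465) and 550.4 FPKM in processed cells (544 to 557). Its log2 ratio was 0.26. ALB, the albumin gene (chromosome 4, 74262831 to 74287129), which lies 9725 bases upstream of AFP in the authors' annotation, had 42.3 FPKM (40.7 to 43.9) in live and 45.9 FPKM (43.4 to 48.4) in processed cells. The fetal carrier was thus the higher of this pair in both libraries, by 10.9 times in live and 11.99 times in processed cells. The log2 ratio of ALB was 0.11, within a range from -0.02 to 0.24 given by the bounds. GC, the vitamin D-binding protein gene of the same family, lies on the same chromosome (72607410 to 72669758) and went the other way, from 115 to 81.2 FPKM, a log2 ratio of -0.50. The remaining gene of the family, AFM, was below 0.1 FPKM in both libraries.

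TTR, transthyretin, which carries thyroxine and binds the retinol carrier in plasma (chromosome 18, 29171689 to 29178974), had 154 FPKM (151 to 157) in live and 180.2 FPKM (177 to 183) in processed cells, a log2 ratio of 0.23. RBP4, the retinol carrier itself (chromosome 10, 95351444 to 95361501), had 6.51 FPKM (5.95 to 7.07) in live and 16.4 FPKM (14.3 to 18.5) in processed cells. The difference was 2.52-fold on FPKM and 1.21 on the log2 scale, with a range from 0.92 to 1.49 from the bounds. RBP4 also had the widest bounds of the 10 genes, at 8.56% of its FPKM in the live and 12.7% in the processed library. Of the 17326 genes, 4.60% had a higher log2 ratio than RBP4, and 2.36% of the 6478 genes whose mean FPKM lay within 2-fold of its own. The ratio of TTR to RBP4 was 23.6 in live and 10.99 in processed cells. No gene of the authors' annotation overlaps RBP4, TTR, AFP or ALB.

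Among the apolipoproteins, the protein parts of lipoprotein particles, APOA1 and APOA2 are the main proteins of HDL. APOA1 (chromosome 11, 116706467 to 116708666) had 297 FPKM (292 to 301) in live and 359.5 FPKM (355 to 364) in processed cells, a log2 ratio of 0.28. APOA2 (chromosome 1, 161192082 to 161193421) had 84.5 FPKM (80.6 to 88.3) in live and 125 FPKM (121 to 130.3) in processed cells. Its log2 ratio of 0.57 was the second highest of the 10 genes, and 2.69% of 1153 genes of a similar level had a higher one. The ratio of APOA1 to APOA2 went from 3.51 in live to 2.86 in processed cells. An antisense gene, AP006216.12, overlaps APOA1 and had 0.0952 and 0.0536 FPKM. Whether reads were counted by strand is not stated in the sources used here.

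APOE, the ligand by which remnant particles are taken up (chromosome 19, 45409011 to 45412650), had 286 FPKM (282 to 289) in live and 303 FPKM (299 to 306) in processed cells, a log2 ratio of 0.08. APOB, the large structural protein of LDL and chylomicrons (chromosome 2, 21224301 to 21266945), was lower in processed cells, with 7.47 FPKM (7.32 to 7.61) in live and 5.84 FPKM (5.70 to 5.98) in processed cells. Its log2 ratio of -0.31 was the lowest of the 10 genes, yet 31.3% of all 17326 genes had a lower one. Of the 4 apolipoprotein genes, 3 were therefore higher and 1 lower in processed cells, with separate bounds in each case. Over all 17326 genes, 28.1% were higher and 43.7% lower with separate bounds, so separate bounds were common.

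SERPINA1 (chromosome 14, 94843084 to 94857030) had 1496 FPKM (1489 to 1503) in live and 1579 FPKM (1571 to 1586) in processed cells. It ranked 31 among all genes by FPKM in the live and 26 in the processed library. The log2 ratio of 0.08 was the smallest in size of the 10 genes, and its bounds, at 0.474% and 0.456% of its FPKM, were the narrowest. FGB, the fibrinogen beta chain (chromosome 4, 155484108 to 155492238), had 142 FPKM (139 to 146) in live and 117 FPKM (115 to 120.3) in processed cells, a log2 ratio of -0.28.

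**Figure D3:**
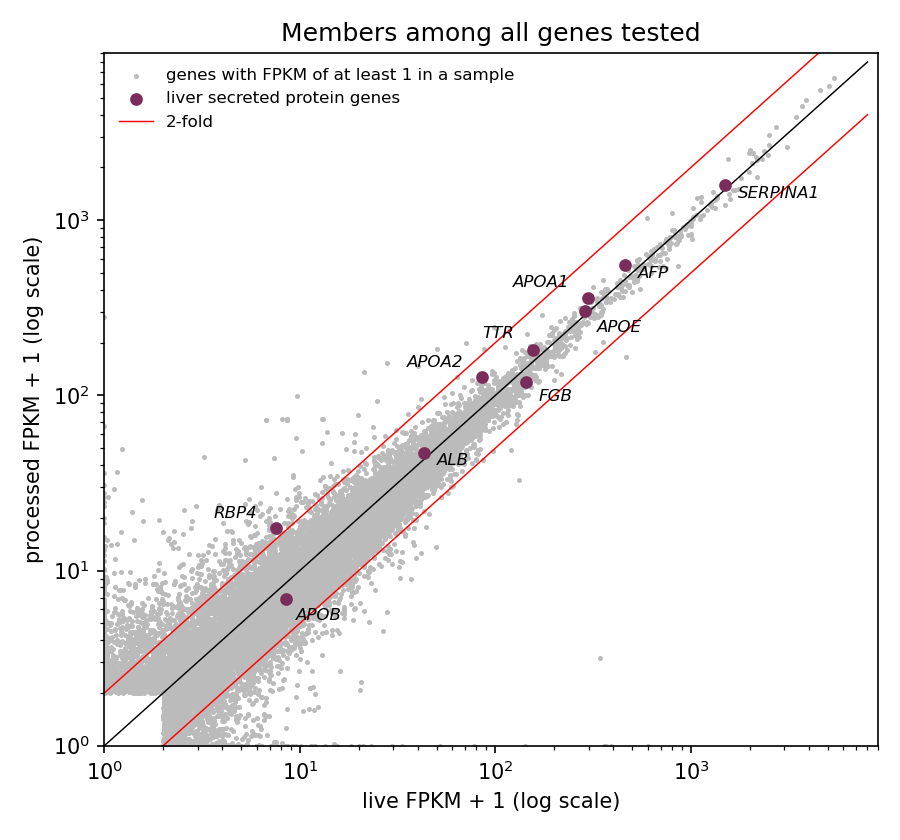
Processed against live FPKM, each with 1 added and on log axes, for 17326 genes (grey) and the 10 liver secreted protein genes (purple); the black line marks equal values and the red lines 2-fold. RBP4 is the single purple point outside the red lines, and FGB and APOB are those below the black line.

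Several of the 10 genes stand in clusters with relatives, and 18 of 20 listed neighbours were found by symbol. Of these, 12 reached 1 FPKM in either library. Processed cells had separate higher bounds for 6 and separate lower bounds for 5, with a median log2 ratio of -0.01, which changed sign to 0.08 after dividing by the median ratio of all genes, to 0.02 after rescaling to the same FPKM sum and to 0.22 with an FPKM of at least 10. Next to APOE, APOC1, an activator and inhibitor of lipoprotein enzymes, had 37.3 and 48.8 FPKM (log2 ratio 0.38). APOC1P1, the pseudogene copy of APOC1, had 0.00226 FPKM in live cells and 0 in processed cells. Next to APOA1, APOC3 had 14.4 and 20.6 FPKM (0.49) and APOA4 had 2.10 and 4.05 FPKM (0.70). These apolipoprotein neighbours thus lay on the same side as APOE and APOA1, whereas APOA5 of the APOA1 cluster was at 0.858 FPKM in live cells and listed at 0 in processed cells. In the APOE cluster, APOC4 had 2 entries that went opposite ways. One went from 0.279 FPKM in live cells to near 0 in processed cells, and the other from 0 to 0.192 FPKM. APOC2 was near 0 or at 0 in both libraries.

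The 3 fibrinogen genes, whose products join in equal numbers in the finished protein, all had separate lower bounds in processed cells. Of all 17326 genes, 43.7% were lower in this way. Relative to the median ratio of all genes, FGA and FGB kept separate lower bounds, whereas the bounds of FGG overlapped. FGA, the alpha chain, had 8.48 and 6.86 FPKM (log2 ratio -0.27), and FGG, the gamma chain, had 5.29 and 4.34 FPKM (-0.24), beside -0.28 for FGB. Their levels were far from equal. FGB exceeded FGA by 16.8 times in live and 17.1 times in processed cells, and it exceeded FGG by 26.9 and 27.1 times. The 3 genes lie within one stretch of chromosome 4, with 12039 bases between FGB and FGA and 13367 between FGA and FGG.

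In the SERPINA cluster on chromosome 14, SERPINA5, the protein C inhibitor, was the highest neighbour of SERPINA1, with 197 and 206 FPKM (log2 ratio 0.06). SERPINA4 had 3.96 and 6.00 FPKM (0.50) and SERPINA3, alpha-1-antichymotrypsin, had 6.51 and 7.46 FPKM (0.17). The authors' SERPINA5 locus overlaps both, so fragments of these 3 genes may be shared. Lower values in processed cells were found for SERPINA6, corticosteroid-binding globulin, with 2.40 and 1.03 FPKM (-0.74), and SERPINA11, with 1.01 and 0.526 FPKM (-0.40). The bounds of SERPINA10 overlapped, with a log2 ratio of -0.07.

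A wider list held 53 other genes for proteins secreted by liver, of which 31 reached 1 FPKM in either library. Processed cells had separate higher bounds for 12 and separate lower bounds for 7, and bounds overlapped for 12. Their median log2 ratio was 0.07, which changed sign to -0.01 without a pseudocount, to -0.02 with an FPKM of at least 10 and to -7.36e-08 with any FPKM above 0. The most abundant were VTN, the adhesive protein vitronectin, with 296 and 257 FPKM (log2 ratio -0.21), AMBP, the precursor of alpha-1-microglobulin and bikunin, with 217 and 216 FPKM (-0.01), and SERPINF1, with 140.0 and 133 FPKM (-0.07). The lowest ratio was that of ITIH1, from 4.34 to 3.05 FPKM (-0.40). The highest was that of CFI, complement factor I, from 0.000163 to 2.27 FPKM (1.71). The other 22 genes stayed below 1 FPKM in both libraries, and among these the acute phase genes CRP, SAA1 and SAA2 were listed at 0 in both.

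Genes that define mature hepatocytes by their enzymes and transporters were low. Of 30 such genes, 18 stayed below 1 FPKM in both libraries, and G6PC, PCK1 and CYP1A2 were listed at 0 in both. CYP3A4 had 0.00899 FPKM in live cells and 0 in processed cells. Their FPKM summed to 44.6 (live) and 61.8 (processed), beside 2976 and 3282 for the 10 secreted protein genes. Of the 12 genes at or above 1 FPKM, 6 had separate higher and 2 separate lower bounds, with a median log2 ratio of 0.23. ASGR1, a subunit of the asialoglycoprotein receptor, had 9.19 and 15.2 FPKM (log2 ratio 0.67). CPS1, which starts the urea cycle, had 2.04 and 7.99 FPKM (1.56), and ARG1, which ends it, was near 0 in live cells and had 2.03 FPKM in processed cells. CYP2E1 had 1.33 and 0.140 FPKM (-1.03).

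Markers of hepatoblasts and yolk sac were abundant, with 9 of 10 at or above 1 FPKM and sums of 3305 and 3438 FPKM. DLK1, a membrane protein of hepatoblasts and other progenitors, had 2139 and 2302 FPKM (log2 ratio 0.11), KRT19 had 543 and 518 FPKM (-0.07), and GPC3 had 372 and 361 FPKM (-0.05). DAB2, an endocytic adaptor of yolk sac endoderm, had 4.82 and 10.8 FPKM (1.02), and TBX3 had 9.03 and 7.26 FPKM (-0.28). The counts were 4 higher and 3 lower with separate bounds, and the median log2 ratio was -0.02, which changed sign to 0.08 after dividing by the median ratio of all genes, to 0.02 after rescaling to the same FPKM sum and to 0.000598 with any FPKM above 0. None of these markers is limited to liver or yolk sac.

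Enterocyte markers, listed because intestinal cells also make apolipoproteins, reached 1 FPKM in 6 of 14 cases, with 3 separate and higher, 2 separate and lower and a median log2 ratio of 0.14. VIL1, the brush border protein villin, had 54.6 and 54.1 FPKM (log2 ratio -0.01). CDX2, an intestinal transcription factor, had 14.1 and 20.9 FPKM (0.53). FABP1, a fatty acid-binding protein of both liver and gut, had 11.3 and 26.1 FPKM (1.14), and CDH17 had 2.25 and 0.886 FPKM (-0.78). FABP2 and ALPI were listed at 0 in both libraries. The summed FPKM of the list came to 86.5 in live and 105 in processed cells. The part of enterocyte-like or hepatocyte-like cells in the values of the 10 genes was not tested.

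Most liver-enriched transcription factors had lower values in processed cells. Of 16 factors, 11 reached 1 FPKM, and processed cells had separate lower bounds for 9 and separate higher bounds for 1. Over all 17326 genes these shares were 43.7% lower and 28.1% higher. Their median log2 ratio was -0.38, and -0.29 relative to the median ratio of all genes. FOXA1 had 126 and 98.4 FPKM (log2 ratio -0.35) and FOXA2 had 60.8 and 55.1 FPKM (-0.14). NR0B2, a nuclear receptor that represses bile acid synthesis, was the one with higher bounds, at 2.51 and 5.92 FPKM (0.98). CEBPA, which drives hepatocyte genes, had 1.65 FPKM in live cells and a value near 0 in processed cells. HNF4A, named after its values were seen, had 22.9 and 14.1 FPKM (-0.67).

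Genes that load, bind or take up the cargo of the 10 proteins were also listed, 28 in all, of which 24 reached 1 FPKM. Processed cells had separate higher bounds for 7 and separate lower bounds for 9, with a median log2 ratio of -0.07, which changed sign to 0.03 after dividing by the median ratio of all genes. CRABP1, an intracellular retinoid binder, had 267 and 230.3 FPKM (log2 ratio -0.21) and CRABP2 had 230.4 and 180.4 FPKM (-0.35). Both CRABP genes were thus lower in processed cells, where RBP4 was higher. TM6SF2, which acts in lipoprotein secretion, had the lowest ratio of the list, with 2.19 and 1.16 FPKM (-0.56). MTTP, which lipidates APOB in the endoplasmic reticulum and was named after its values were seen, had 7.51 and 7.70 FPKM (0.03) with overlapping bounds.

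**Figure D4:**
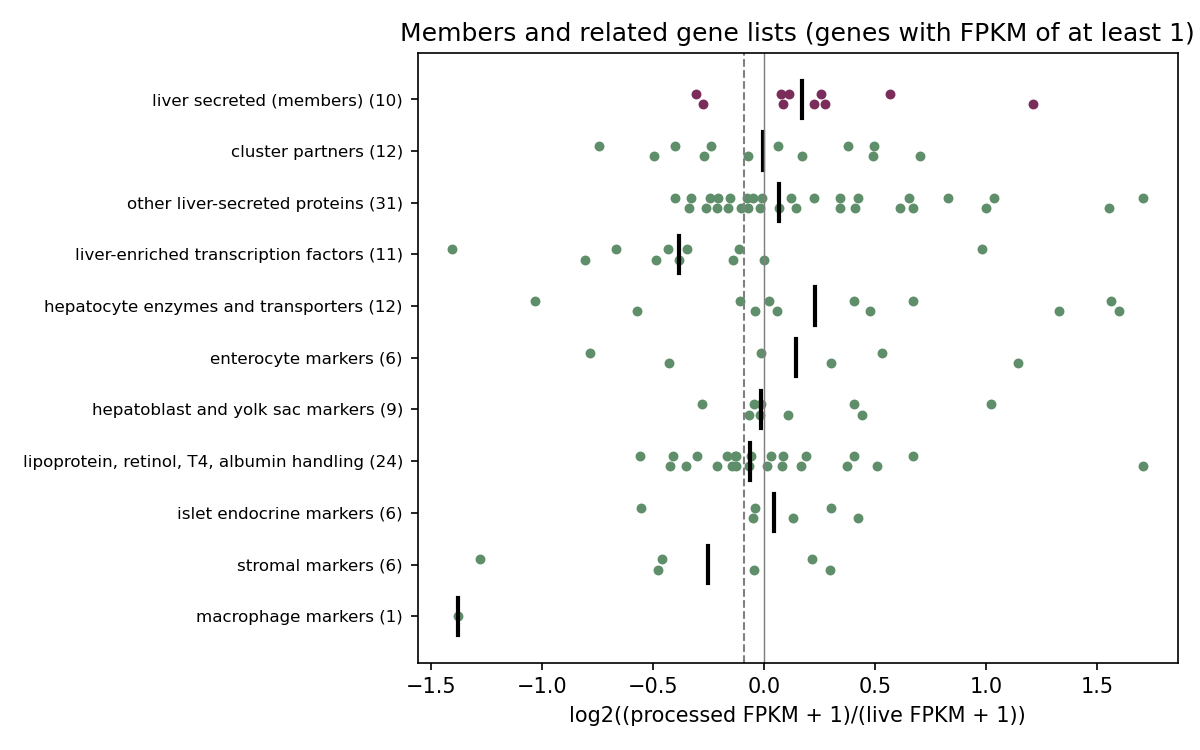
Log2 ratio of processed to live FPKM for the 10 genes (purple) and for each related list (green), with 1 point per gene of at least 1 FPKM in a library, a black bar at each median and the number of genes in parentheses; cluster partners are the chromosomal neighbours. The median of the 10 genes is 0.17 and that of the transcription factors -0.38, with the dashed line at -0.09 for all genes.

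Transcript length moved with the ratios. By the longest protein-coding transcript, protein-coding genes of up to 1000 nt had a median log2 ratio of 0.04 (576 genes), those over 1000 and up to 2000 nt of -0.01 (2249 genes), those over 2000 and up to 4000 nt of -0.09 (4990 genes) and those over 8000 nt of -0.22 (1271 genes). Among the 10 genes, APOA2 was the shortest, at 530.0 nt, and had the second highest ratio, and APOB was the longest, at 14121 nt, and had the lowest. Spearman's rho of ratio and length was -0.73 over the 10 genes, which share both libraries, and -0.17 over 13524 protein-coding genes. Over 30 other liver-secreted genes it was -0.13. Compared with the median of their own length class, 8 of the 10 genes were higher and 2, FGB and APOB, lower. The 11 transcription factors had a median length of 3476 nt, and the 10 genes one of 1800 nt. The part of length in these ratios was not tested.

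**Figure D5:**
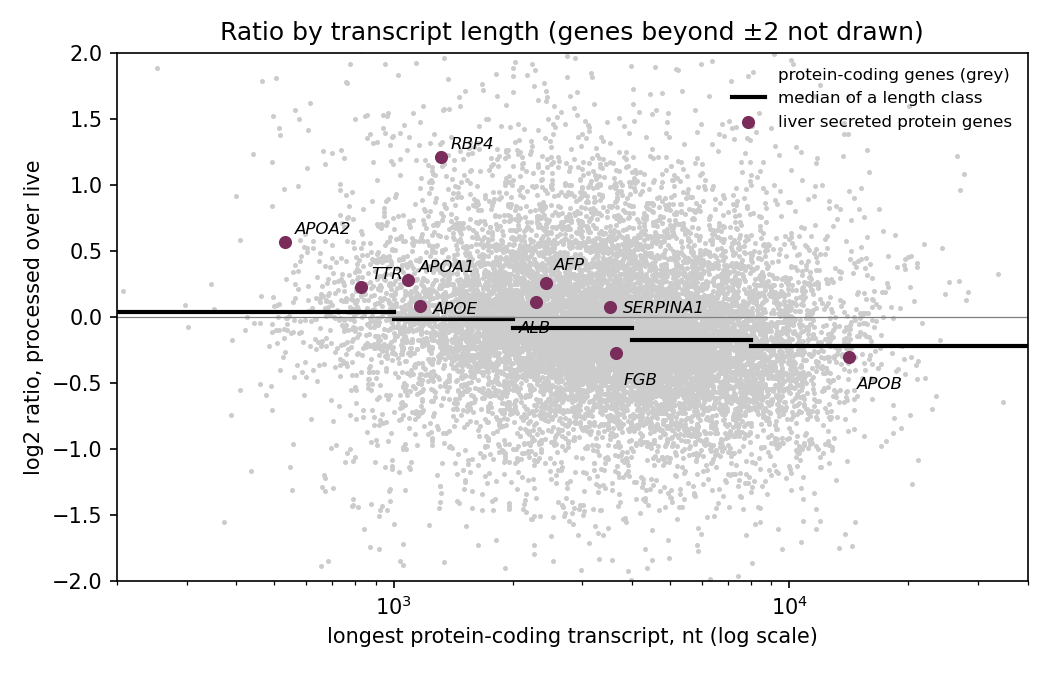
Log2 ratio of processed to live FPKM against the length of the longest protein-coding transcript (log axis) for protein-coding genes (grey) and the 10 genes (purple), with a black bar at the median of each length class. The class medians run from 0.04 for the shortest to -0.22 for the longest transcripts, and the 10 genes run from APOA2 at 530.0 nt to APOB at 14121 nt.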

How the data were processed

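RNA-seq of 1 live and 1 processed sample of H1-derived Stage 6 cells was used. Poly-A selected RNA was read as pairs of 80 nt. The authors aligned reads to GRCh37/hg19 with STAR 2.2.0c guided by GENCODE 14 and deposited an FPKM per gene with lower and upper bounds from Cufflinks 2.0.2, which the methods call Cuffdiff. These values are normalized, and read counts were not used here. Locus starts in the deposited tables count from 0 and are given here from 1.

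Genes were joined by identifier with Python 3.11.15 and pandas 2.3.3. Ratios used a pseudocount of 1, and backgrounds used genes that reached 1 FPKM in either library. Types and lengths came from GENCODE 44 mapped to GRCh37, which held 96.5% of these genes. Fragment totals came from the smallest step in FPKM times effective length (transcript less 170 nt) and cover counting depth only. The ratios and 2-fold counts were tested on simulated data, only for genes of at least 10 FPKM in live cells and changes well past 2-fold. That simulation says nothing about weaker genes, smaller changes or the separate bounds. The genes and lists were chosen with earlier results of these data known. Besides the 10 genes, the text names chromosomal neighbours of at least 1 FPKM, and from each other list the 3 highest genes and the largest rise and fall; other names were added for context, and some genes of the lists are not reported here.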

Additional observations from a re-analysis of the deposited data

How the results depend on the processing

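The 10 genes kept the sign of their log2 ratio in all 40 values recomputed under 4 alternatives (both scalings, a pseudocount of 0.1 and none). This was largely fixed in advance, because a pseudocount cannot change a sign and both scalings (division by 0.932 and 0.978) raise every ratio. Only FGB and APOB could have changed sign, under the scalings. Of the 40 values, 8 moved outside the range given by the bounds, all under the scalings. Dividing by the median ratio moved the median of the 10 genes to 0.27 and that of hepatoblast and yolk sac markers to 0.0846. A pseudocount of 0.1 gave 3468 genes past 2-fold in place of 2210, and moved the macrophage value from -1.38 to -4.09. That value is the ratio of 1 gene, CD163, which was listed at 0 in processed cells, so its size depends on the pseudocount. With an FPKM of at least 10, 2285 genes were higher and 4019 lower with separate bounds and 427 past 2-fold, and the medians were 0.22 for chromosomal neighbours, 0.53 for enterocyte markers and -0.0436 for stromal markers. With any FPKM above 0, 12906 genes were lower with separate bounds, and the medians were -0.0838 for enterocyte and -0.17 for macrophage markers. Among protein-coding genes 906 were past 2-fold. Filters change these counts by testing other genes; the cause of the other moves was not tested. No paired analysis was possible because each condition has 1 library, and no library could be left out. The medians of other lists that changed sign are given where each list is described. Among the 10 genes, the bounds of RBP4 were the widest relative to its level in both libraries, and the part of depth in this was not tested.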

Other observations

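Further lists bear on which other cells the cultures held. Of 8 islet endocrine markers, 6 reached 1 FPKM, with 3 separate and higher and 1 separate and lower in processed cells and a median log2 ratio of 0.04, which changed sign to -0.04 with any FPKM above 0. CHGA, a granule protein of endocrine cells, had 1794 FPKM in the live and 1741 FPKM in the processed library, where its status was FAIL, so that its bounds carry no information. Glucagon (GCG) had 135 and 131 FPKM, and ghrelin (GHRL) had 32.1 and 43.3 FPKM (log2 ratio 0.42). PPY was listed at 0 in both libraries.

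All 6 stromal markers reached 1 FPKM, with 1 separate and higher, 3 separate and lower and a median log2 ratio of -0.25. COL1A1 had 31.9 and 22.7 FPKM (-0.48), COL1A2 had 21.5 and 26.6 FPKM (0.30), COL3A1 had 13.4 and 12.98 FPKM (-0.04), and PDGFRB had 4.26 and 1.17 FPKM (-1.28). Macrophage markers were near the floor, with a summed FPKM of 3.36 in live and 1.63 in processed cells over 8 genes. CD163 alone reached 1 FPKM, at 1.60 in live cells, and was listed at 0 in processed cells, while CD68 had 0.830 and 0.703 FPKM and CSF1R 0.498 and 0.923 FPKM. C1QA and C1QB were listed at 0 in both libraries. Their part in the values of APOE, which macrophages also express, was not tested.

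Of the 117 listed genes that reached 1 FPKM in either library, 6 were below 0.01 FPKM in the other. ARG1, CFI, HP and SERPINA7 were near 0 or at 0 in live cells and had 2.03, 2.27, 1.05 and 1.94 FPKM in processed cells. CEBPA and CD163 were near 0 or at 0 in processed cells and had 1.65 and 1.60 FPKM in live cells. Over all 17326 genes 3.48% had such a pair of values, 242 with the low value in live and 361 in processed cells. All 6 had status OK in both libraries, and a value of 0 in such tables can be a failed estimate.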
